A study of Mus musculus with 14 samples.

Results

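The Sec14l1 and Septin9 locus is a stretch of mouse chromosome 11 from 116850000 to 117300000 (build mm9) in which SOX10 ChIP regions lay in 2 runs. It held 24 of the 7929 regions in the deposited list. The members were chosen by position: every region overlapping this window of 450 kb was taken. The window itself was picked from the number and closeness of regions in the same list, so the counts and signals below describe it and were not tested. The values come from 1 list made for both SOX10 ChIP samples together, so no value has a replicate error and no interval was computed.

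SOX10 is a transcription factor of the SOX family, needed for peripheral glia and melanocytes, which come from the neural crest, and it is found in mammary epithelial progenitors. Its HMG box binds short sites around a core such as ACAAT or ACAAAG. Sec14l1 encodes a SEC14-like protein with a lipid-binding CRAL-TRIO domain. Septin9 encodes a septin, one of the GTP-binding proteins that assemble into filaments and act in cytokinesis and cell shape. Older names of Septin9, Msf and Sint1, come from its discovery as a fusion partner of MLL in leukemia and as a retroviral integration site in mouse T-cell lymphoma.

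The study measured chromatin by ChIPmentation, in which a transposase inserts the sequencing adapters into the precipitated chromatin on the beads. PY230 is a mouse mammary tumor line from the MMTV-PyMT model, in which polyoma middle T antigen is driven by a mammary tumor virus promoter. The groups used here are 2 SOX10 ChIP samples and 1 control sample from PY230 tumors in adult C57BL6J mice, grown from cells transplanted into syngeneic hosts. The ChIP cells carried SOX10 with an AVI tag and BirA, which biotinylates the tag, and streptavidin beads were used in both groups. What the control cells carried is not given beyond the word control, and the labels describe the tumors once as bulk and once as FACS isolated. The 1 PY230 input sample and the H3K27ac groups of normal mammary cells were not analysed here.

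The names of both genes come with the window. No mm9 gene annotation was used here, so it is not stated which region lies in which gene, exon, intron or UTR, and the gene names were not checked against the regions. In the RefSeq gene table of GRCm38.p6, used only for the order of genes, no other protein-coding gene lies between Sec14l1 and Septin9. The nearest genes of any kind are the miRNA gene Mir6516 and the lncRNA Snhg20 before Sec14l1, and the lncRNAs Gm34128 and Gm11729 after Septin9. The nearest protein-coding genes are Mgat5b before and Tnrc6c after. These were looked up after the list had been seen.

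No mm9 sequence of the regions was at hand. The RefSeq start-site windows of both genes (GRCm38.p6, 250 bases before to 50 after each start) were matched by symbol and gave 6 windows, 2 for Sec14l1 and 4 for Septin9. They are shown to let the SOX core be seen in or missing from the genes' own start sites, and are not tied to any region of the list. ACAAT and ACAAAG were searched on both strands, and capitals mark matches, none of which overlapped. Only 1 of the 6 windows held a match: the downstream start of Sec14l1 had ACAAT from base 78 and the reverse complement of ACAAAG from base 226. Of all 32851 RefSeq start-site windows, 42.9% held either core and 6.86% held both, and the median GC content was 52.7%. The first starts of Sec14l1 and Septin9 had a GC content of 73.0% and 71.3%, against 53.3% at the downstream start of Sec14l1. Below stand the first start of Sec14l1 (chr11:117114918-117115217), its downstream start (chr11:117135758-117136057) and the first start of Septin9 (chr11:117199411-117199710). All 3 are on the plus strand in GRCm38.p6 coordinates, which differ from those of the list.
Sec14l1 first start: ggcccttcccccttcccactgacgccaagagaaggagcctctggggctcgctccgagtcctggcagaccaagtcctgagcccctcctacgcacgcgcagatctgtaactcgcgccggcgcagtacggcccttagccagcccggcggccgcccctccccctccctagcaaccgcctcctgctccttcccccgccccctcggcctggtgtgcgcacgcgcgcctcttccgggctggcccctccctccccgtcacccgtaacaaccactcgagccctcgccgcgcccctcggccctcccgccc
Sec14l1 downstream start: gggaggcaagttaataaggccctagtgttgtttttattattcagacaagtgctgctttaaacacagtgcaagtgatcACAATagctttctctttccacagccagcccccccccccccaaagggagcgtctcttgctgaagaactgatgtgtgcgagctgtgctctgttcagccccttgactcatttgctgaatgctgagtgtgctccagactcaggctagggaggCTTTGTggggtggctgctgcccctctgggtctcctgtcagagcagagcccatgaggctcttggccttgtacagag
Septin9 first start: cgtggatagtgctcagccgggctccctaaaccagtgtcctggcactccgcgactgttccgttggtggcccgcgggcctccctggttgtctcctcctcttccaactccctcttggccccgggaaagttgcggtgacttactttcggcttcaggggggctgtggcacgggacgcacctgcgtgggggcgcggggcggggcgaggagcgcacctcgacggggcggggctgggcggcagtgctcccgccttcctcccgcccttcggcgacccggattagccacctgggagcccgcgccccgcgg

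SOX10 ChIP regions of the locus lay in a run of 12, a run of 7 and 5 others, where a run joins regions with gaps under 10 kb. The run of 12 spanned 44.9 kb (116937932 to 116982802) and the run of 7 spanned 29.6 kb (117117277 to 117146846). Both runs together took up 16.5% of the window and held 79.2% of its regions. In the whole list 4.43% of regions lay in runs of 5 or more. Among the 219 other regions of distal chromosome 11, the part past position 111000000, 40 (18.3%) lay in such runs. Before the run of 12 lay 207 kb with no region, 119 kb of it outside the window. The runs were 134 kb apart, with 2 regions between them.

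**Figure D1:**
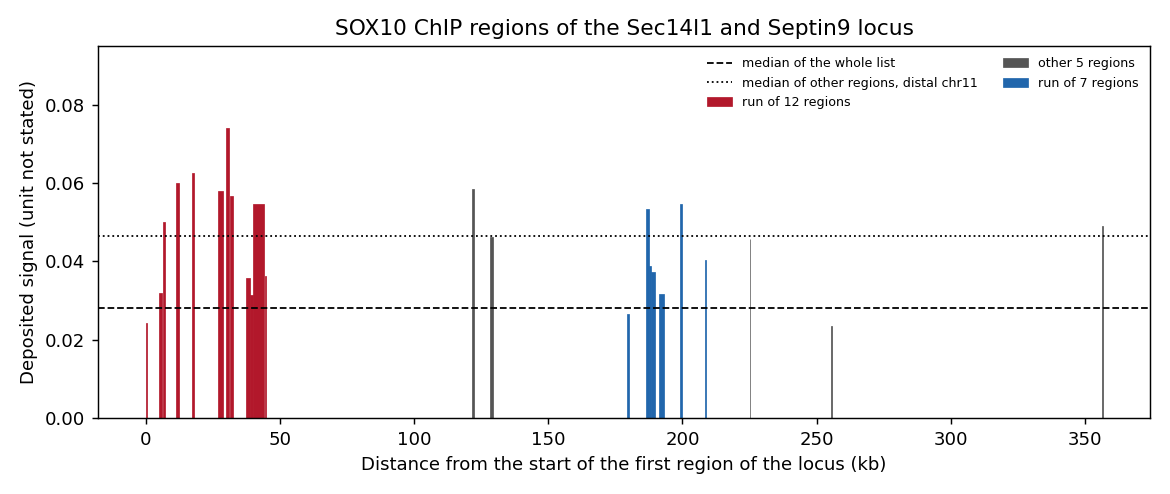
Deposited signal (unit not stated) of the 24 SOX10 ChIP regions against distance from the start of the first region, in kb, with bar widths to scale apart from a thin outline. Red bars are the run of 12, blue bars the run of 7 and grey bars the other 5 regions, and the dashed and dotted lines are the medians of the whole list (0.0280) and of the other regions of distal chromosome 11, the part past position 111000000 (0.0464). Most bars stand above the dashed line and fall on both sides of the dotted one.

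The run of 12 opened with a weak narrow region. Region 1 (116937932 to 116938384) was 453 bp wide with a signal of 0.0242, below the list median of 0.0280. Region 2 (116942744 to 116944151, 1408 bp) had a signal of 0.0318. Region 3 (116944264 to 116945213, 950 bp) followed after 112 bp with 0.05002. Signal thus rose over the first 3 regions.

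Regions 3 to 8, and region 11 further on, were among the 10% of the list with the highest signal. So were 44.7% of the other regions of distal chromosome 11. Region 4 (116949272 to 116950164, 893 bp) had a signal of 0.0600. Region 5 (116955218 to 116956099, 882 bp) had 0.0625, the second highest of the locus. These 2 stood alone, with gaps of 4058 and 5053 bp before them.

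The region with the highest signal lay in a group of 3 in the middle of the run of 12. After the widest gap of the run, 8681 bp, region 6 (116964781 to 116966804) was 2024 bp wide with a signal of 0.0579. Region 7 (116967732 to 116969026, 1295 bp) had the highest signal of the locus, 0.0742, which ranked 128 in the list and was 2.65 times the list median. Region 8 (116969493 to 116970447, 955 bp) had 0.0568. The 3 regions together spanned 5.67 kb.

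The run of 12 ended in a nearly continuous block of 4 regions over 7.35 kb. Region 9 (116975456 to 116976719, 1264 bp) had a signal of 0.0359. Region 10 (116976967 to 116977958, 992 bp) had 0.0316. Region 11 (116978059 to 116982145) was 4087 bp wide, the widest of the locus and rank 9 by width in the list, with a signal of 0.0546. Region 12 (116982204 to 116982802, 599 bp) had 0.0362. The block was thus uneven in signal, with its wide region well above the 3 beside it. Gaps of 247, 100 and 58 bp separated its regions, and the list does not show whether such neighbours are separate sites.

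The run of 7 was weaker at its median, 0.0387 against 0.0523 in the run of 12, and their ranges overlapped (0.0267 to 0.0548 against 0.0242 to 0.0742). Region 1 (117117277 to 117117953, 677 bp) had a signal of 0.0267. Regions 2 (117124538 to 117125531, 994 bp), 3 (117125602 to 117126335, 734 bp) and 4 (117126404 to 117127717, 1314 bp) had signals of 0.0534, 0.0387 and 0.0374. They lay 70 and 68 bp apart and formed 1 nearly unbroken stretch of 3180 bp.

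The rest of the run of 7 was more scattered. Region 5 (117129249 to 117131035) was its widest, 1787 bp, with a signal of 0.0318. Region 6 (117136923 to 117137771, 849 bp) had its highest signal, 0.0548. Region 7 (117146272 to 117146846, 575 bp) had 0.0404. As in the run of 12, the widest region was not the strongest.

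The 5 regions outside the runs were narrower at the median, 410 bp against 974 bp in the run of 12 and 849 bp in the run of 7. A pair between the runs (117059378 to 117060319, 942 bp, and 117066316 to 117067430, 1115 bp) had signals of 0.0586 and 0.0462. The other 3 stood alone after the run of 7. The narrowest of the locus (117163078 to 117163302, 225 bp) had a signal of 0.0457. The weakest of the locus (117193468 to 117193777, 310 bp) had 0.0236, and the last (117294129 to 117294538, 410 bp) had 0.0490. Their median of 0.0462 lay between those of both runs.

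Regions continued beyond both ends of the window. Just inside lay region 1 of the run of 12 (signal 0.0242, 87.9 kb from the edge) and the last region (0.0490, 5.46 kb from the edge). Just outside lay 116730402 to 116730975 (574 bp, signal 0.0730) and 117376339 to 117378035 (1697 bp, signal 0.0609), 119 and 76.3 kb away. Both regions outside were stronger than the nearest one inside.

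Read equivalents give a rough idea of how much lay behind each region. Signal times width came out as whole multiples of 0.0479 (within 0.05) in 99.9% of 7282 regions under 1500 bp with a signal above 0. Of those multiples, 2856 (39.3%) were multiples of 54, as if reads of 54 bases each added 1 step per base. The other lengths tried, from 40 to 70 bases, gave a median of 97. Most of those multiples, and most regions of the locus, were thus not a whole number of such reads. A read equivalent is signal times width divided by 0.0479 and by 54, and may be net of the control. The depth of the samples is unknown. On this scale the 24 regions ranged from 2.83 to 86.3 with a median of 18.2, against 7.5 in the whole list and 14.7 in the other regions of distal chromosome 11, the part past position 111000000. The run of 12 held 65.6% of the locus total of 472, and its widest region alone 18.3%. That region is not among those under 1500 bp used for the scale. Its value came to 4662.57 steps, not a whole number. The weakest region of the locus (310 bp) had the value of 2.83, and the narrowest (225 bp, signal 0.0457) had 3.98. On this scale single narrow members, also those of ordinary signal, thus rest on very little. The number of ChIP reads under them is not known.

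Against other windows of its length, the locus was dense in regions and ordinary in signal per region. Distal chromosome 11 was tiled into 24 windows of 450 kb, of which the locus is 1. Its 24 regions were the highest count, with 0 to 22 in the other 23 windows (median 8). Its covered length of 25.7 kb was also the highest, with 24.7 kb in the window next to it in rank. By median signal, 0.0460, the locus ranked 11 of the 19 windows with at least 5 regions, where the other 18 ranged from 0.0380 to 0.0672. By the highest signal it ranked 6 and by median width (946 bp) 5 of the 19. Summed over the window, its 472 read equivalents ranked 1 of 24, with at most 428 in the others. Its 11 regions among the 10% of the list with the highest signal also ranked 1, with at most 10 elsewhere. Both of these measures grow with the number of regions. Windows and regions are neighbours on 1 chromosome in 1 list, and these ranks are a description.

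**Figure D2:**
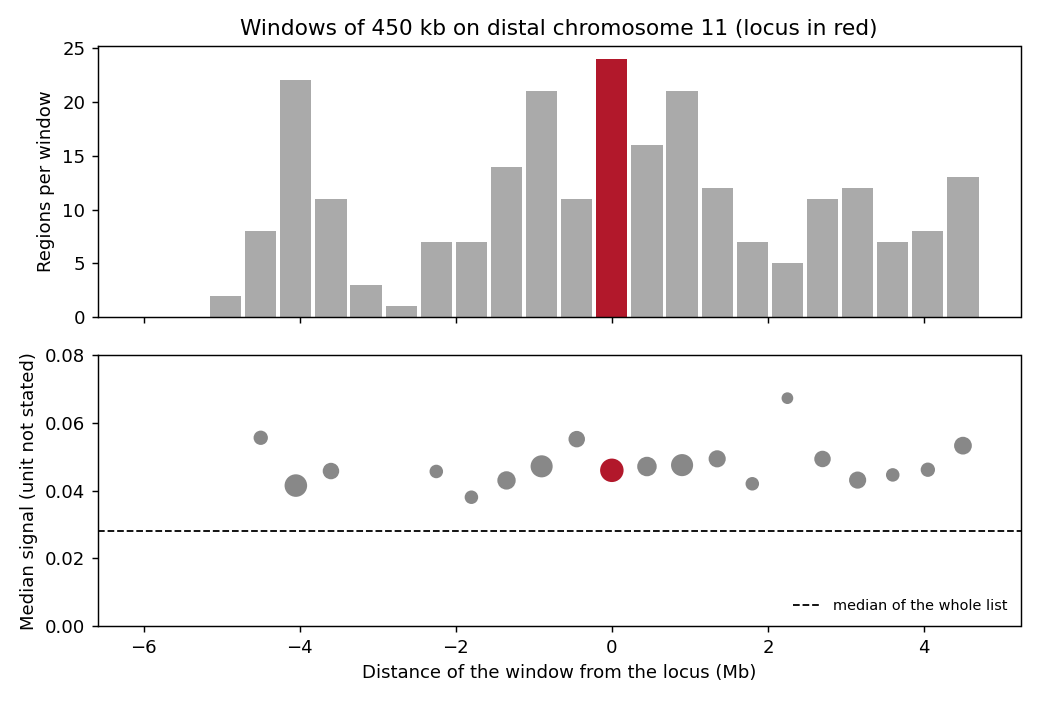
Number of SOX10 ChIP regions (top) and median deposited signal (bottom, unit not stated, windows with at least 5 regions, larger points for more regions) in windows of 450 kb of distal chromosome 11, against distance from the locus in Mb. The locus, in red, has the tallest bar with 24 regions, while its median signal of 0.0460 lies among those of the other windows and above the list median of 0.0280 (dashed).

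Counting runs once changed the rank by number. With each run taken as 1 unit, the locus held 6 units and ranked 10 of 24 windows, whose counts went up to 14. The next window by count (112800000 to 113250000) had 22 regions in 6 units, a longest run of 9 and a median signal of 0.0415. The windows at 115950000 to 116400000 and 117750000 to 118200000 had 21 regions each in 14 and 10 units, with longest runs of 4 and 5. The locus and the window of 22 regions thus reached similar counts from few long runs, and the latter pair from many short ones.

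First place depended on where the windows begin. When windows were moved in steps of 10 kb, a choice made after the list had been seen, the window from 117660000 to 118110000 held 26 regions, more than the locus. The next best outside the locus, from 112710000 to 113160000, held 23. On the same grid over all chromosomes, 5802 windows, 2 held more regions than the locus. Both were on chromosome 4 with 25 regions each (81750000 to 82200000 and 88500000 to 88950000), and 1 window each on chromosomes 15 and 8 also held 24. All of these covered more than the 25.7 kb of the locus. Covered lengths were 44.3 and 36.9 kb on chromosome 4, 26.8 kb on chromosome 15 and 25.8 kb on chromosome 8.

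Signal in the locus was close to that of the other 219 regions of distal chromosome 11. The medians were 0.0460 (quartiles 0.0349 and 0.0553) and 0.0464 (quartiles 0.0356 and 0.0562), a difference of -0.000405. With 1 value per run the difference was 0.00178, so its sign turned with the way regions were counted. In the locus 11 of 24 regions (45.8%) were among the 10% of the list with the highest signal, where the share is 10.0% of the list and 44.7% of these other regions. The locus median was 1.64 times that of the whole list, and 21 of 24 regions (87.5%) lay above the list median, as did 86.8% of the other distal regions. The 319 regions of the chromosome before its distal part had a median of 0.0265. The locus median was thus close to that of the distal regions around it.

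Widths in the locus were larger at the median than around it, a difference that was not tested. The median was 946 bp (quartiles 658 and 1272), against 808 bp (quartiles 543 and 1258) in the other distal regions and 683 bp in the whole list. Regions of 1500 bp or more made up 3 of 24 (12.5%), against 7.34% of the list and 15.5% of the other distal regions. Width and signal went together only loosely, with a Spearman rho of 0.233 over the 24 regions and 0.181 over the other 219, values that share the same 2 pooled libraries and carry no test.

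**Figure D3:**
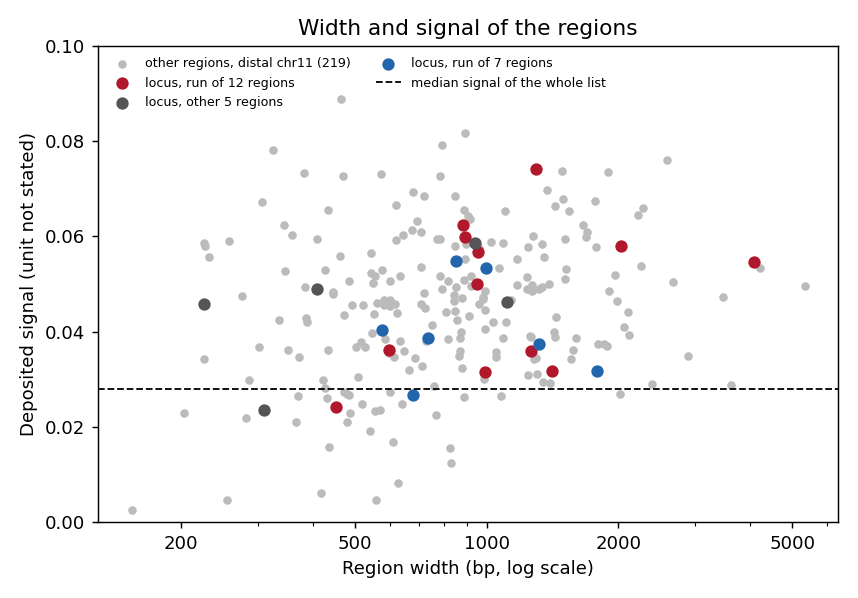
Deposited signal (unit not stated) against region width in bp on a log scale for the 24 regions of the locus (red, run of 12; blue, run of 7; dark grey, the other 5) and the other 219 regions of distal chromosome 11 (light grey), with the list median signal as a dashed line. The coloured points lie within the cloud of light grey ones, with the region of 4087 bp near the right edge.

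Neighbouring regions in the locus lay close together. Of 23 neighbouring pairs inside the locus, 8 (34.8%) were less than 1 kb apart, against 5.75% of the list and 11.1% of 217 distal pairs outside the locus. Gaps under 150 bp, a limit set after the gaps had been seen, separated 5 pairs (21.7%), against 2.73% of the list and 4.15% of those 217. Joining these 5 pairs left 19 units. The widest of them, 116976967 to 116982802, was 5836 bp long and held 107 read equivalents. The window was picked for close regions, so nothing is read from these shares.

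Compared with the 2 other runs of at least 11 regions in the list, both on chromosome 4, the run of 12 was similar in length and signal and less filled. The run of 16 (82139982 to 82189532) spanned 49.6 kb with 62.1% of it covered by regions, and the run of 11 (88680083 to 88725015) spanned 44.9 kb with 40.8% covered. In the run of 12 the share was 35.2% and in the run of 7 it was 23.4%, with a median of 28.6% over all 56 runs of 5 or more regions. Median signals were 0.0523 in the run of 12, 0.0483 in the run of 16 and 0.0457 in the run of 11. The median spacing between region centres was 2640 bp in the run of 12, 2523 bp in the run of 16, 3728 bp in the run of 11 and 5143 bp in the run of 7. The read equivalents of the run of 12 summed to 310, those of the run of 11 to 329 and those of the run of 16 to 638.

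**Figure D4:**
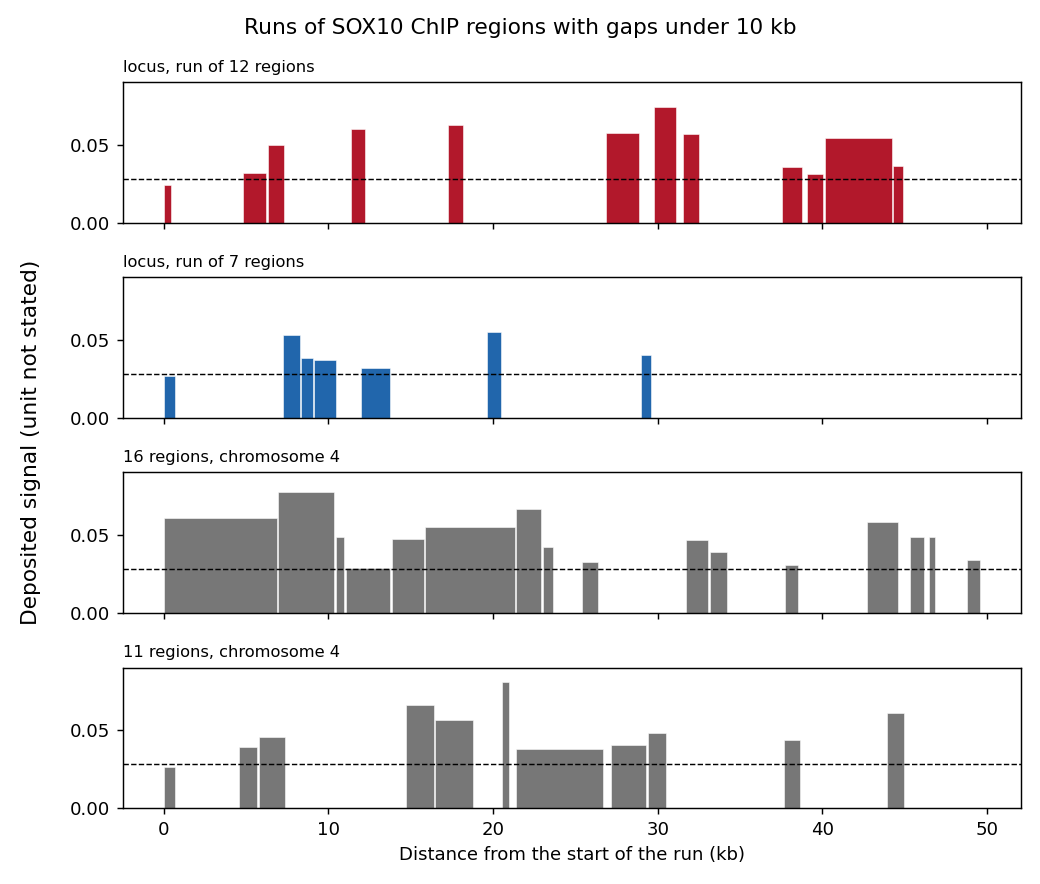
Deposited signal (unit not stated) along the runs of 12 and 7 regions of the locus and the runs of 16 and 11 regions on chromosome 4, against distance from the start of each run in kb, with bar widths to scale and the list median as a dashed line. The run of 16 is the most filled, at 62.1% of its span against 35.2% in the run of 12, and the highest signals of the 4 runs are 0.0742, 0.0548, 0.0775 and 0.0807, from top to bottom.

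Among the 56 runs of 5 or more regions, 1 had more regions than the run of 12 and 9 had more than the run of 7. A higher median signal was found in 9 runs for the run of 12 and in 26 for the run of 7. Of these 56 runs, 8 lay on distal chromosome 11, both runs of the locus included. The run of 12 was near the top of the list by number of regions, a measure from which the window had been picked. The run of 7 was near the middle by signal.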

How the data were processed

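The deposited list gives, for each region, a chromosome, a start, an end, a name and a signal. The signal values were made by the authors, whose unit and formula the sources used here do not give. FastQC, Bowtie 0.12.8, SAMtools 1.3.1, MACS2 2.1.1 and build mm9 are named, without parameters, per the submitters' processing notes. The labels of both SOX10 ChIP samples name this 1 list, so replicates cannot be compared, and the depth per sample is unknown.

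Members were regions overlapping the window by at least 1 base, with starts written 1-based. Runs joined regions with gaps under 10 kb. Read equivalents, ranks of windows of 450 kb and start-site motifs were computed with Python 3.11.15, pandas 2.3.3, numpy 2.4.6 and scipy 1.17.1. The step finder and the joining of runs were tested on simulated data. No test between groups was made, as the members and lists were chosen with earlier results of these data known. Named regions were those of both runs, the strongest, widest and narrowest, and those next to the window's ends. The remaining members were named as well. The planned counts over septin and SEC14-like genes were not made, since no mm9 annotation was used here.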

Additional observations from a re-analysis of the deposited data

How the results depend on the processing

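No paired analysis was possible because both ChIP samples share 1 list without sample numbers, and no library could be left out. Windows tiled from the start of the distal part, and the list without regions at 0, could not change a value, since the first is the same grid and no distal region was at 0. In the top 10% of the list by signal, the locus held 11 regions instead of 24. With gaps under 5 kb, and likewise under 2 kb, the run of 12 broke up and its largest piece held 4 regions, and the largest piece of the run of 7 also held 4. With runs counted once, the rank by number of regions went from 1 to 10. The gap limit and the counting of runs, by their construction, set these values. With gaps under 20 kb the runs held 12 and 8 regions. By number of regions, the locus was at rank 1 of 23 with shifted windows. Kept in place, the locus was behind 1 best placed window of 26 regions. The difference in median signal from other distal regions went from -0.000405 to 0.00178 with 1 value per run, and to -3.27e-05 under 1500 bp. Region counts of 16 (regions under 1 kb apart counted once) to 28 (100 kb added on both sides) came from the other settings. The rank by median signal went from 11 of 19 to 7 of 16 with shifted windows. The best placed windows and the limit of 150 bp were chosen after seeing the data. Low read equivalents limit the ranking of single regions.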

Other observations

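The locus is 1 of 11 windows of 450 kb in the whole genome grid that held at least 20 regions. Chromosome 11 had 4 of these, chromosome 4 had 4, chromosome 15 had 2 and chromosome 8 had 1. The window with 24 regions on chromosome 15 (59250000 to 59700000) had a median signal of 0.0302 with none among the 10% of the list with the highest signal, where the locus had 11 of 24. The window with 24 regions on chromosome 8 (129000000 to 129450000) had a median of 0.0317 and 6 such regions. Windows with the same number of regions thus had different signals, a difference that was not tested.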
